A study of Mus musculus with 4 samples.

Results

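The genes described here encode 10 transcription factors that set and keep the identity of B cells: Pax5, Ebf1, the E proteins Tcf3, Tcf12 and Tcf4, the ETS factors Spi1 and Spib, the octamer factor Pou2f2 with its coactivator Pou2af1, and the zinc finger protein Bcl11a. They were taken by gene symbol, and all 10 were found among the 24411 symbols of the deposited tables. Each of the 10 passed the filter on low reads that left 12617 genes for testing. RNA was sequenced from bone marrow of mouse tibiae and femurs after sorting for B220, an isoform of the surface phosphatase encoded by Ptprc that marks the B lineage. Wildtype mice gave 2 libraries, and mice whose genotype label is Arid5b overexpression gave the other 2. Arid5b belongs to the ARID family, whose members bind AT-rich DNA. The promoter or allele that drives Arid5b, the strain and the age are not given in the sources used here, and the labels do not say whether each library is a separate mouse, so p-values measure the spread between libraries. A spelling slip in the genotype of 1 wildtype library was taken to mean wildtype.

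The libraries held 14196665 to 20356404 reads assigned to genes. Reads of the 10 genes ran from 119 (Pou2f2) to 31905 (Pou2af1), both in overexpression-labelled library 1. Counting error is therefore small for most of these values, and the number of libraries limits the precision. Arid5b had 5963 and 6813 normalised reads (reads divided by the library's size factor) in wildtype libraries 1 and 2, 136339 in overexpression-labelled library 1 (OE1 below) and 5454 in overexpression-labelled library 2 (OE2 below). Arid5b was thus raised in OE1 and goes against the label of OE2. Whether OE2 is an overexpression sample cannot be told from these values, so a comparison of both with wildtype joins 1 library with raised Arid5b to 1 without. Across the tested genes OE1 stood apart, with a Pearson r of 0.786 to 0.792 to each other library, where the other 3 libraries correlated at 0.964 to 0.982 with each other. Wildtype library 1 had 24 reads of Xist and the other 3 libraries 68540 to 132008, so wildtype library 1 differs from the rest in sex-linked expression. Each result below is therefore given for OE1 and OE2 apart as well as for both. The B cell markers Cd79a, Cd79b, Ms4a1, Cd22 and Ptprc all had reads in every library. Their summed normalised reads were 157550 and 174309 in wildtype, 56208.5 in OE1 and 172406 in OE2. Ptprc made up 71134 of the sum in wildtype library 1. Cd79b went against the sum, with 14345 normalised reads in OE1, 6899 and 6465 in wildtype and 7588 in OE2.

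B cell fate is laid down in steps. PU.1 (Spi1) and the E protein E2A (Tcf3) act in early progenitors, Ebf1 then starts the B lineage programme, and Pax5 fixes it by switching on B cell genes and switching off genes of other lineages. E proteins bind DNA as dimers at E-box sites and are held back by Id proteins. Oct-2 (Pou2f2) and OBF-1 (Pou2af1) act together at octamer sites, and Spi-B (Spib) shares many sites with PU.1. Several of these factors also serve other cells: Tcf4, Spib and Bcl11a are used by plasmacytoid dendritic cells, which carry B220 as well, and Spi1 by myeloid cells.

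Promoter windows are shown for 3 members on which the results below turn: Pou2af1, which was called in both overexpression-labelled libraries, Spib, which fell in OE1, and Pax5, which rose there. Each is the 250 bases upstream of the start in RefSeq's GRCm38.p6 table, 5′ to 3′ on the gene's strand. Capitals mark matches to an E-box (CANNTG), an EBF palindrome (CCCNNGGG) or the pentamer AATAT, one of a pair, with AATAC, that the ARID domain of Arid5b is known to prefer.
Pou2af1, chr9:51213440-51213689, plus strand: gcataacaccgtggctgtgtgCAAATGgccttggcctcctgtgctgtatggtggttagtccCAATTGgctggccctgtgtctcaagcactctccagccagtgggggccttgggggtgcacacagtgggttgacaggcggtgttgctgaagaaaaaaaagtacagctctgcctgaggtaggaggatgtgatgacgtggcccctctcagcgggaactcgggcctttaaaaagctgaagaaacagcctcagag
Spib, chr7:44532072-44532321, minus strand: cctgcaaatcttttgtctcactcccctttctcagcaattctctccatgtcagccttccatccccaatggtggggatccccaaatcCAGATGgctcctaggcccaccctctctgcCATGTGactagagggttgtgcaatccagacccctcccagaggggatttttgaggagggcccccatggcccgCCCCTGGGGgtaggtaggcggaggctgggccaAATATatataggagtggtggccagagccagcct
Pax5, chr4:44710695-44710944, minus strand: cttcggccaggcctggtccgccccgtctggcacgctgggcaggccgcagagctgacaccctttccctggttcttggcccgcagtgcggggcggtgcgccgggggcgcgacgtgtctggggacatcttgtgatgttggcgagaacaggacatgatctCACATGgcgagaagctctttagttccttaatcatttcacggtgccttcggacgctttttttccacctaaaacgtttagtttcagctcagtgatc

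The Pou2af1 window held 2 E-boxes, the first beginning 229 and the second 189 bases before the start, and none of the other motifs searched. In the Spib window there were 2 E-boxes, 2 overlapping EBF palindromes that begin 65 and 64 bases before the start, and 1 AATAT at 33 bases. Pax5 had a single E-box, 94 bases before its start. For Pax5 and Pou2af1 this RefSeq start lies outside the gene as annotated by GENCODE M21, which begins at 44710487 (Pax5) and 51213708 (Pou2af1). RefSeq gave 11 such windows for 8 of the 10 members, with none for Tcf4 and Spi1. An E-box was present in 9 of the 11 windows and in 66.2% of all 32851 windows of this length, counting both strands. The PU.1 core GAGGAA was in 3 of 11 (23.3% of all windows), AATAC in 3 (21.3%), AATAT in 2 (23.3%), the EBF palindrome in 1 (11.8%) and the octamer ATGCAAAT in 0 (1.6%). A match describes the letters of a window and is not a site of binding.

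Levels are compared between genes as normalised reads per kilobase of exons, from the union of GENCODE M21 exons (GRCm38). Pou2af1 was the most abundant of the 10 in every library, with 6555 and 7802 normalised reads per kilobase in wildtype, 29358 in OE1 and 17121 in OE2. By this measure it stood at rank 140 and 130 in the wildtype libraries, 16 in OE1 and 50 in OE2 among the 12118 tested genes with a length. In wildtype Ebf1 came next, at 2419 ± 18.8 normalised reads per kilobase (SD, n = 2), then Spib at 2070 ± 228, Spi1 at 893 ± 85.1 and Pax5 at 663 ± 10.1. Tcf3 (465 ± 4.98), Tcf4 (427 ± 46.2), Tcf12 (371 ± 23.7) and Pou2f2 (358 ± 62.6) lay close together, and neighbours in this stretch of the order did not differ beyond their spread. Bcl11a was lowest, at 135 ± 29.2 normalised reads per kilobase. The order of the middle members depends on the length used: by the longest coding transcript Tcf4 and Tcf12 stood above Pax5 in both wildtype libraries, while Pou2af1, Ebf1 and Spib stayed the first 3. In OE1 Pou2f2 was last by both lengths (in OE2 it was last by the longest coding transcript), at 33.9 normalised reads per kilobase of exons against 217 for Bcl11a.

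**Figure D1:**
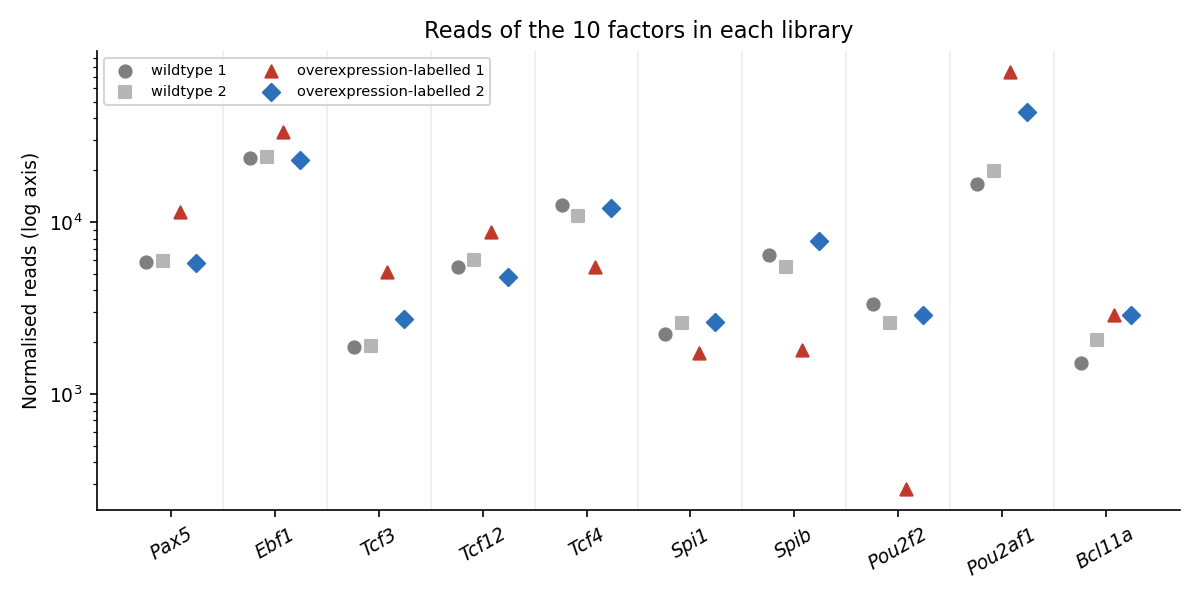
Normalised reads (reads divided by the size factor, log axis) of the 10 genes in each of the 4 libraries, 1 point per library. OE1 (triangles) lies apart from the other 3 libraries in most genes, and Pou2af1 is higher in both overexpression-labelled libraries than in wildtype.

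By its labels the study asks what excess Arid5b does to RNA levels in B220+ cells. Tcf3, Pou2af1 and Bcl11a were higher in both overexpression-labelled libraries than in either wildtype library, and the other 7 members overlapped between the groups. Of all tested genes 42.6% did not overlap, 19.6% higher and 23% lower, so 3 of 10 higher and 0 of 10 lower is not read as particular to these genes. Pou2af1 had the largest difference among the 10, with a log2 mean of 15.80 ± 0.549 (SD, n = 2) against 14.16 ± 0.177 in wildtype (difference 1.65, SE 0.383, limma adjusted p = 0.726). Tcf3 differed by 0.96 (SE 0.392) and Bcl11a by 0.68 (SE 0.293), and neither passed (limma adjusted p = 0.726 for both). By limma 0 of the 10 members were called, as were 0% of all tested genes. At an unadjusted p under 0.05 there was 1 member, Pou2af1, among 280 of all genes, and limma-voom on the recovered reads called 0 members. Leaving out OE1 or OE2 gives the same fit as the other library alone against wildtype, which is described below. Without OE1 the differences of Pax5, Ebf1, Tcf12, Tcf4, Spi1 and Spib turned their sign. The direction of those 6 over both groups therefore rests on OE1.

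Set alone against the wildtype pair, OE1 had more RNA of Pax5, Ebf1, Tcf3, Tcf12, Pou2af1 and Bcl11a and less of Tcf4, Spi1, Spib and Pou2f2. All 10 members were called by limma, 6 higher and 4 lower, where 61.2% of all tested genes were called, 26.8% higher and 34.4% lower. The median size of the difference, whatever its sign, was 1.03 log2 units over the 10 members and 0.88 over all genes. Most genes moved in OE1, so that these factors moved there too is not particular to them. In OE2 1 of the 10 was called, Pou2af1, where 1.66% of all genes were called (0.769% higher), and the median size of the difference was 0.20 for the members and 0.26 for all genes. The spread in these tests comes from the wildtype pair and the prior across genes, and a lone library is taken to share it. With no filter on low reads 2 members (Pax5 and Tcf3) stayed called in OE1, where 14.8% of 17905 genes were called, and 0 in OE2, where 0% were.

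**Figure D2:**
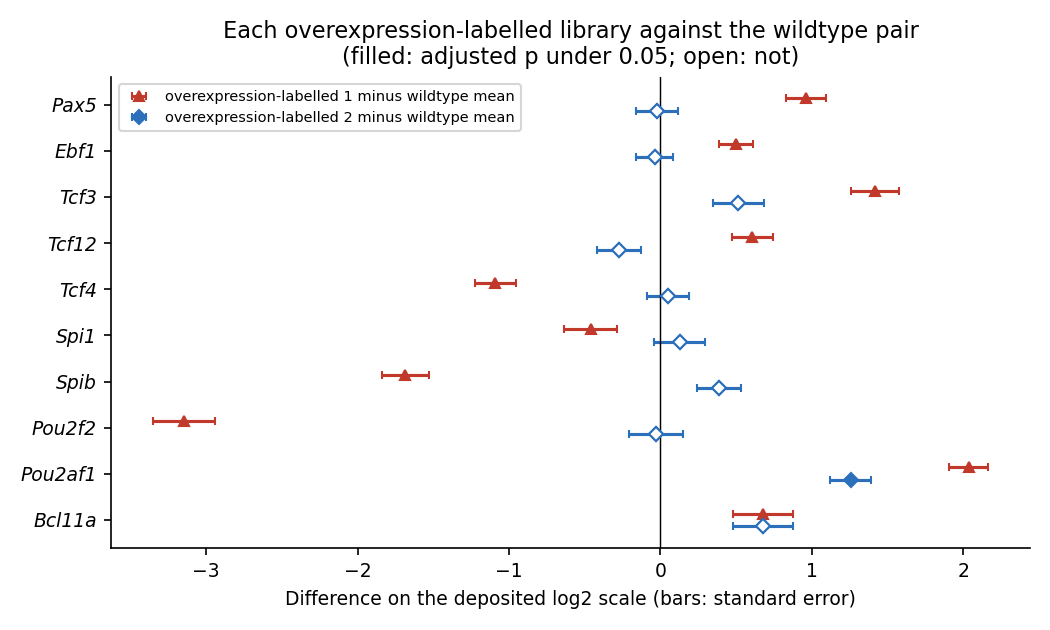
Difference of OE1 (triangles) and of OE2 (diamonds) from the wildtype mean on the deposited log2 scale, with standard errors from limma, for the 10 genes. Filled points passed an adjusted p of 0.05. The OE1 points run from -3.15 for Pou2f2 to 2.03 for Pou2af1, and the OE2 points lie near 0 except for Pou2af1 at 1.26 and, without passing, Bcl11a at 0.68 and Tcf3 at 0.51.

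Pax5 (ENSMUSG00000014030.15, chromosome 4, 44524757 to 44710487, GRCm38) encodes the paired-domain factor that commits cells to the B lineage. It had 5808 and 5934 normalised reads in wildtype libraries 1 and 2, 11486 in OE1 and 5777 in OE2. OE1 alone was high, and OE2 lay just below both wildtype libraries. Pax5 rose 1.96-fold in OE1, by 0.96 log2 units (SE 0.13, limma adjusted p = 3.07e-05), and its difference in OE2 was -0.02 (95% interval -0.32 to 0.28). Pax5 shares 636 exon bases with 5730488B01Rik on the opposite strand, and the strand setting of the counting is not given in the sources used here, so reads there cannot be told apart.

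Ebf1 (ENSMUSG00000057098.14, chromosome 11, 44617317 to 45008091), which opens and activates B lineage genes upstream of Pax5, followed the same order with a smaller change. Its normalised reads were 23466 and 23725 in wildtype, 33370 in OE1 and 22960 in OE2. Ebf1 rose in OE1 by 0.50 log2 units (SE 0.115, limma adjusted p = 0.00208), or 1.41-fold, and in OE2 the difference was -0.04 (95% interval -0.30 to 0.22). The ratio of Ebf1 to Pax5 reads per kilobase of exons was 3.67 and 3.63 in wildtype, 3.61 in OE2 and 2.64 in OE1. Across all genes the median difference of OE1 from wildtype was -0.15 on the deposited scale and 0.02 when libraries were scaled by their totals without the ribosomal RNA precursor Rn45s. Both genes were called higher under each of the 3 other scalings. The call of Ebf1 was lost with no filter (limma adjusted p = 0.0646) and with no trend in limma (0.104).

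The 3 E proteins divided. Tcf3 and Tcf12 rose in OE1 while Tcf4 fell. Tcf3 (ENSMUSG00000020167.14, chromosome 10, 80409514 to 80433647) encodes E2A, the E protein required for the start of B cell development. It had 1865 and 1893 normalised reads in wildtype, 5109 in OE1 and 2709 in OE2. Both overexpression-labelled libraries were above both wildtype libraries, which differed by little. Tcf3 rose in OE1 by 1.41 log2 units (SE 0.158, limma adjusted p = 5.22e-06), or 2.72-fold. In OE2 the level was 1.44-fold that of wildtype (difference 0.51, SE 0.168), which did not pass (limma adjusted p = 0.162).

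Tcf12 (ENSMUSG00000032228.16, chromosome 9, 71842688 to 72111871) encodes HEB, a partner of E2A. Its normalised reads were 5499 and 6020 in wildtype, 8789 in OE1 and 4753 in OE2, so that OE1 was the highest library and OE2 the lowest. It rose in OE1 by 0.61 log2 units (SE 0.136, limma adjusted p = 0.00172), a call lost with no filter (0.086) and with no trend (0.0716). OE2 differed from wildtype by -0.27 (SE 0.143, limma adjusted p = 0.381). Tcf4 (ENSMUSG00000053477.17, chromosome 18, 69343356 to 69689079) encodes E2-2, the E protein on which plasmacytoid dendritic cells depend. It had 12578 and 10790 normalised reads in wildtype, 5439 in OE1 and 12052 in OE2. OE1 alone was low, and OE2 lay between the wildtype libraries. Tcf4 fell by 1.09 log2 units in OE1 (SE 0.137, limma adjusted p = 1.51e-05), a 2.15-fold lower level.

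The balance among the E proteins shifted with these changes. Per kilobase of exons, reads of Tcf4 to Tcf3 stood at a ratio of 0.995 and 0.841 in wildtype, 0.656 in OE2 and 0.157 in OE1. By the longest coding transcript the same ratio was 2.32 and 1.96 in wildtype, 1.53 in OE2 and 0.366 in OE1, so Tcf4 exceeded Tcf3 in 3 libraries by this length and in none by the other. Both lengths gave OE1 the lowest ratio. Tcf12 to Tcf3 was lower in both overexpression-labelled libraries (0.448 in OE1 and 0.456 in OE2 per kilobase of exons) than in wildtype (0.767 and 0.827), without a test.

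Both ETS members were lower in OE1, Spib by more. Spib (ENSMUSG00000008193.13, chromosome 7, 44525993 to 44532071) encodes Spi-B, used by mature B cells and plasmacytoid dendritic cells. It had 6399 and 5475 normalised reads in wildtype, 1799 in OE1 and 7762 in OE2, so that the 2 overexpression-labelled libraries lay on opposite sides of wildtype. Spib fell by 1.69 log2 units in OE1 (SE 0.154, limma adjusted p = 7.69e-07), a 3.30-fold lower level. OE2 was 0.39 above wildtype (SE 0.147), which did not pass (limma adjusted p = 0.22).

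Spi1 (ENSMUSG00000002111.8, chromosome 2, 91082390 to 91115756) encodes PU.1, which acts in both lymphoid and myeloid progenitors. Its normalised reads were 2243 and 2568 in wildtype, 1726 in OE1 and 2627 in OE2. Spi1 fell by 0.46 log2 units in OE1 (SE 0.172, limma adjusted p = 0.0325), the smallest change of the 10 there. The call was lost under all 3 other scalings, by limma-voom (limma adjusted p = 0.0524), with no trend in limma and with no filter. OE2 differed by 0.13 (95% interval -0.24 to 0.49). The ratio of Spib to Spi1 per kilobase of exons was 2.681 and 2.004 in wildtype and 2.777 in OE2, and 0.979 in OE1.

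Markers of other cell types also differed between the libraries. Plasmacytoid dendritic cell markers (Siglech, Bst2, Ccr9, Irf7, Cox6a2, Klk1 and Ly6c2) summed to 6230 and 3640 normalised reads in wildtype, 455 in OE1 and 3326 in OE2. In OE1 6 of these 7 genes had fewer than 20 reads, Klk1 had 0, and 352 of the 455 normalised reads were those of Bst2, which other cells express too. The wildtype library with more of these markers also had more Tcf4, Spib and Pou2f2 but less Bcl11a (1512 against 2056 normalised reads). OE2 had a lower marker sum than wildtype library 2 (3326 against 3640) but more Tcf4, Spib and Pou2f2. The part of these markers in the results for those genes was not tested. In bulk libraries, fewer cells of a type and less RNA per cell cannot be told apart. T cell markers summed to 1504 and 1462 normalised reads in wildtype, 53.9 in OE1 and 797 in OE2, and NK cell markers to 1092 and 1169, 44.6 and 738.

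Neutrophils and monocytes express Spi1. Neutrophil markers, of which 7 of 7 tested were called higher in OE2, summed to 249 and 3878 normalised reads in wildtype, 4553 in OE1 and 56991 in OE2, and monocyte markers to 1227 and 1744, 1227 and 8281. Of the monocyte sum in OE2, 7964 normalised reads were Lyz2, which neutrophils express too. Lyz2 was the 1 of 5 tested monocyte markers called in OE2 (list median -0.18), and Csf1r, Ccr2 and Adgre1 were lower there than in both wildtype libraries. Spi1 was highest in OE2 and wildtype library 2, at 2627 and 2568. It was lowest in OE1, at 1726, although the neutrophil sum there (4553) was above that of wildtype library 2 (3878). The part of myeloid cells in the Spi1 values was not tested. Erythroid markers were at or near 0, with 0 reads of Hbb-bs, Hbb-b1 and Hba-a1 in all 4 libraries.

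**Figure D3:**
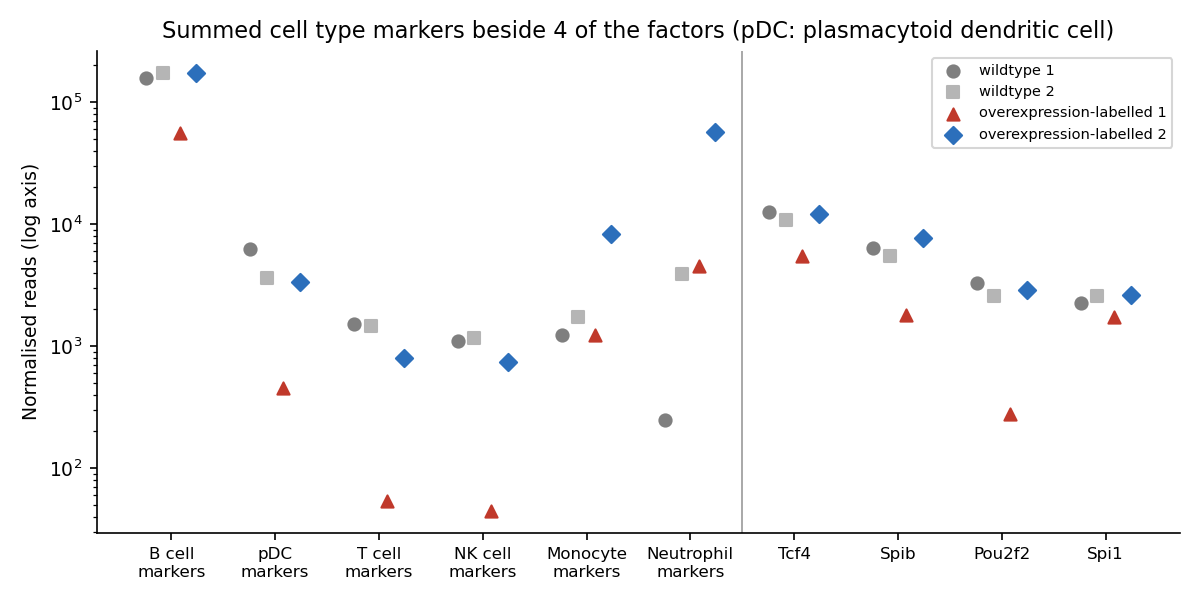
Summed normalised reads of marker genes of 6 cell types (left) and normalised reads of Tcf4, Spib, Pou2f2 and Spi1 (right) in each library, log axis. OE1 is lowest for the summed B cell, pDC, T cell and NK cell markers and for all 4 factors, although the B cell marker Cd79b is highest there. OE2 is highest for neutrophil markers and for the monocyte sum, of which Lyz2 makes up 7964 of 8281 normalised reads.

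The octamer pair moved in opposite directions in OE1. Pou2f2 (ENSMUSG00000008496.19, chromosome 7, 25087344 to 25179726) encodes Oct-2, which B cells need for late maturation and responses to antigen. It had 3317 and 2587 normalised reads in wildtype, 279 in OE1 and 2867 in OE2. OE1 alone was low, on 119 reads, and OE2 lay between the wildtype libraries. Pou2f2 fell by 3.15 log2 units in OE1 (SE 0.205, limma adjusted p = 2.72e-08), a 10.6-fold lower level and the largest change of the 10. Among all tested genes this change had rank 593 by size. In OE2 the difference was -0.03 (95% interval -0.42 to 0.36).

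Pou2af1 (ENSMUSG00000032053.8, chromosome 9, 51213708 to 51240080) encodes OBF-1, the B cell coactivator that binds with Oct-1 or Oct-2 on octamer DNA. Its normalised reads were 16708 and 19886 in wildtype, 74834 in OE1 and 43641 in OE2. Both overexpression-labelled libraries stood well above both wildtype libraries, and OE1 was the highest. Pou2af1 rose in OE1 by 2.03 log2 units (SE 0.129, limma adjusted p = 2.01e-08) and in OE2 by 1.26 (SE 0.136, limma adjusted p = 0.00141), or 4.09-fold and 2.385-fold. The 2 comparisons share the wildtype libraries, and 0.214% of all genes were called higher in both. Its change in OE2, where Arid5b itself was not raised, had rank 207 by size of all 12617 genes. That call held under the 3 other scalings, the stricter filter, limma-voom, the other pseudocount and the robust prior. It was lost with no filter (limma adjusted p = 0.299) and with no trend (limma adjusted p = 0.382), settings in which 0 of all genes were called in OE2.

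Oct-1, encoded by the widely expressed Pou2f1, is the other partner of OBF-1, and it too was lower in OE1. Pou2f1 had 9758 and 9599 normalised reads in wildtype, 4377 in OE1 and 9159 in OE2, a fall of 1.13 log2 units in OE1 (SE 0.13, limma adjusted p = 6.5e-06). Per kilobase of exons the ratio of Pou2f1 to Pou2f2 was 1.46 and 1.84 in wildtype, 1.59 in OE2 and 7.79 in OE1. The ratio of Pou2af1 to Pou2f2 was 16.3 and 24.9 in wildtype, 49.2 in OE2 and 867 in OE1. The coactivator thus stood in greater excess over each octamer factor in OE1 than in the other libraries.

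**Figure D4:**
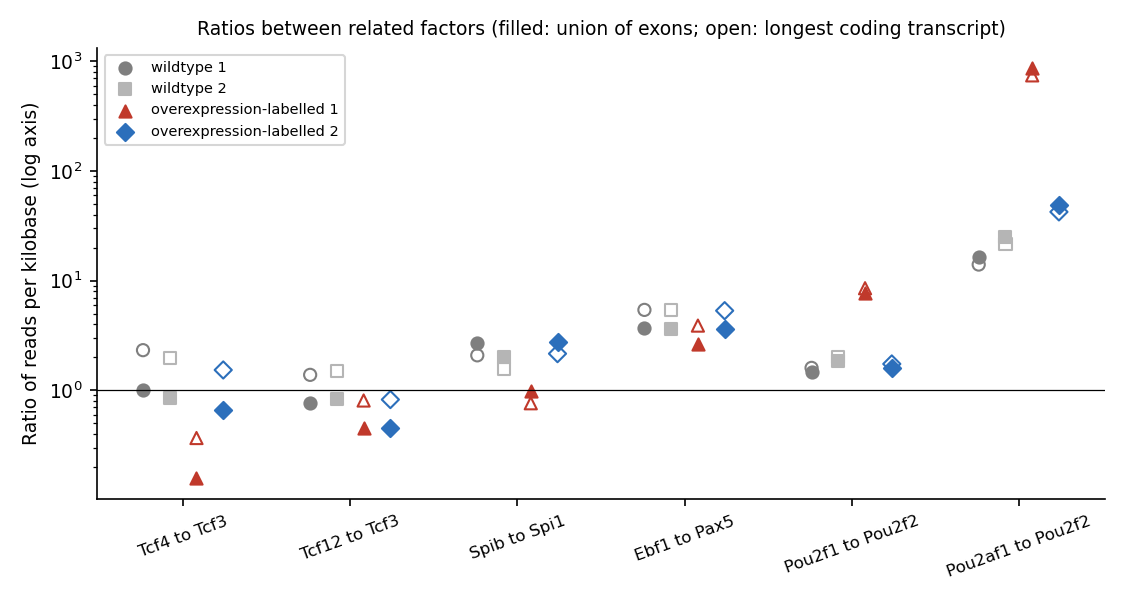
Ratios of reads per kilobase between related genes in each library, log axis, with lengths from the union of exons (filled) and from the longest coding transcript (open). OE1 (triangles) has the lowest Tcf4 to Tcf3 and Spib to Spi1 ratios and the highest Pou2af1 to Pou2f2 ratio by both lengths.

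Bcl11a (ENSMUSG00000000861.15, chromosome 11, 24078056 to 24174123) encodes a zinc finger factor that lymphoid progenitors need to make B cells. It had 1512 and 2056 normalised reads in wildtype, and 2859 in OE1 and 2857 in OE2. On the log2 scale the wildtype libraries differed from each other by more than for any other member, and both overexpression-labelled libraries were above them at nearly the same level. Bcl11a rose in OE1 by 0.68 log2 units (SE 0.196, limma adjusted p = 0.00897), or 1.60-fold, and this call was lost with no filter (0.247) and with no trend (0.0989). In OE2 the difference was also 0.68 (SE 0.199), but it did not pass (limma adjusted p = 0.123), except by limma-voom (0.72, limma adjusted p = 0.0214). Before adjustment over all genes limma gave p-values of 0.00415 in OE1 and 0.00507 in OE2.

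The overexpression-labelled libraries were also set against each other in a fit of all 4 libraries with the spread of the wildtype pair. Of the 10 members 9 differed between OE1 and OE2, 5 higher in OE1 and 4 lower, where 52.6% of all genes differed, 22.4% higher and 30.1% lower. Pou2f2 (-3.12, SE 0.227, limma adjusted p = 1.94e-07) and Spib (-2.07, SE 0.173, 6.61e-07) differed most. Pou2af1, although higher than wildtype in both, was 1.71-fold higher in OE1 than in OE2 (difference 0.78, SE 0.152, limma adjusted p = 0.000937). Bcl11a was the member that did not differ, at 0.00 with a 95% interval of -0.48 to 0.49. This test compares 2 libraries, not 2 conditions, and with no filter Pax5 and Tcf3 were the 2 called, where 13.9% of all genes were.

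Genes that these factors are known to control were taken from lists. Of 12 genes that Pax5 activates, 1 rose and 7 fell in OE1 (median difference -0.36, against -0.15 for all genes) although Pax5 itself rose. Ciita, the master activator of MHC class II genes, fell by 5.73 (limma adjusted p = 4.47e-11) and Ikzf3, which encodes Aiolos, by 4.64 (limma adjusted p = 1.67e-11). Lef1, a Wnt pathway factor of early B cells, rose by 5.39 (limma adjusted p = 1.36e-10), from 295 and 263 normalised reads in wildtype to 14132. In OE2 Lef1 was lower, at 65.0 normalised reads (-1.51, limma adjusted p = 0.0487), as was Bach2, a repressor of plasma cell genes (-1.12, limma adjusted p = 0.00303). Of 9 genes that Pax5 represses, 0 rose and 8 fell in OE1 (median -1.53), led by Cd28 (-3.29, limma adjusted p = 1.17e-06) and Fcer1g (-2.50, limma adjusted p = 1.84e-05). Xbp1, a plasma cell factor, fell in OE1 by 0.95 and in OE2 by 0.77 (limma adjusted p = 0.000108 and 0.0264). Plasma cell markers, Xbp1 among them, summed to 11751 and 12570 normalised reads in wildtype, 4234 in OE1 and 13217 in OE2. Jchain made up 4977 and 5511 of these in wildtype, 117 in OE1 and 7553 in OE2. Sdc1 went against the sum in OE1, with 941 normalised reads there, 41.8 and 160 in wildtype and 61.0 in OE2. Cd28 and Fcer1g are also genes of T cells and of myeloid and NK cells, whose markers are given above for T and NK cells, and their part was not tested.

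Among 11 targets of Ebf1 and E proteins, 5 were not tested because 3 of the libraries had almost no reads of them. All 5 were far higher in OE1, so the filter left out only list genes that were high there. The count and median of the tested genes below do not include them. The whole list summed to 110051 and 115729 normalised reads in wildtype, 188513 in OE1 and 106844 in OE2. Igll1 and Vpreb1, the surrogate light chain genes on which Ebf1 and E2A act together, had 84662 and 22904 normalised reads in OE1 and 0 reads elsewhere, and Rag1 had 10152 in OE1, 7.97 in wildtype library 1 and 0 in the other two. Of the 6 tested 1 rose and 5 fell in OE1 (median -1.17). Cd79b, the signalling chain of the B cell receptor, rose by 1.10 (limma adjusted p = 8.39e-06), while its partner Cd79a fell by 1.31 (limma adjusted p = 6.05e-07). The largest changes downward in the list were in Blk, a Src kinase of B cells (-2.95, limma adjusted p = 1.45e-08), and Foxo1 (-1.51, limma adjusted p = 4.77e-07). Foxo1, a factor that acts with Ebf1, fell in OE2 too, by 0.89 (limma adjusted p = 0.00756).

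Of 7 targets of PU.1 and Spi-B 2 rose and 4 fell in OE1 (median -2.07), and 0 were called in OE2. Il7r, the receptor of the pre-B growth factor IL-7, rose by 5.51 (limma adjusted p = 1.09e-08), and Btk, a kinase of the B cell receptor, rose by 0.72 (limma adjusted p = 0.00232). P2ry10 fell by 4.60 (limma adjusted p = 3.4e-10) and the adaptor Blnk by 2.99 (limma adjusted p = 5.14e-10). Ptprc, which encodes the sorted marker B220, fell by 2.47 (limma adjusted p = 1.16e-09), from 71134 and 76808 normalised reads in wildtype to 13330 in OE1, with 75331 in OE2. Among 4 targets of the octamer factors and OBF-1, 1 rose (Btk) and 3 fell in OE1 (median -2.33). Cxcr5, the receptor that guides B cells to follicles, fell by 3.84 (limma adjusted p = 5.39e-09). The fatty acid receptor Cd36 fell by 3.55 (limma adjusted p = 8.27e-10). Kcnn4, a potassium channel, fell in OE1 by 1.11 (limma adjusted p = 0.00286) and in OE2 by 1.25 (limma adjusted p = 0.0421), on 1867 and 1097 normalised reads in wildtype.

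Of 5 genes linked to Bcl11a 2 rose and 3 fell in OE1 (median -0.48), and 0 were called in OE2. Bcl2l1, which encodes the survival protein Bcl-xL, rose by 3.19 (limma adjusted p = 4.8e-06) while Bcl2 fell by 1.70 (limma adjusted p = 2.38e-06). Flt3, a cytokine receptor of early progenitors that is also on the Pax5-repressed list, fell by 2.01 (limma adjusted p = 6.89e-05). Since most genes moved in OE1, these counts describe the lists in 1 library and are read against the shares of all genes given above. The direction of those shares depends on the setting. Falls outnumbered rises on the deposited scale. Rises outnumbered falls with no filter and with scaling by totals without Rn45s.

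**Figure D5:**
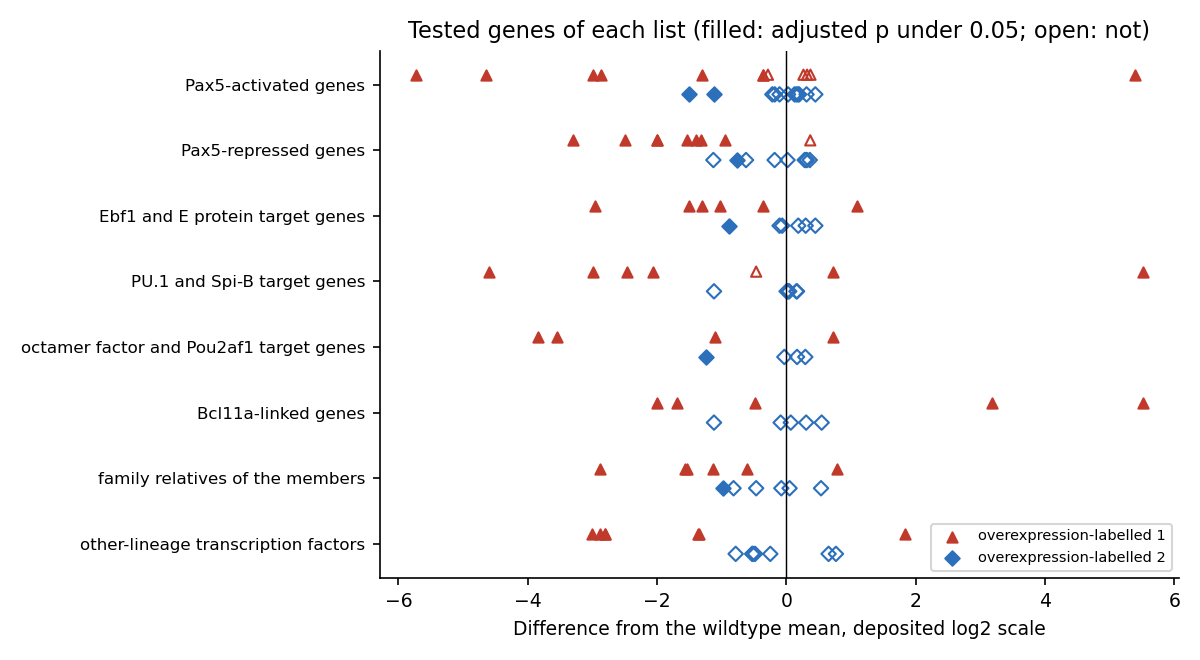
Differences from the wildtype mean on the deposited log2 scale for each tested gene of 8 lists, in OE1 (triangles) and OE2 (diamonds), with filled points past an adjusted p of 0.05. OE1 points spread from -5.73 (Ciita) to 5.51 (Il7r), and OE2 points lie between -1.51 (Lef1) and 0.77 (Cebpb).

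The likeness of patterns was measured as the root mean square difference, in log2 units, of library values centred on their mean over the 4 libraries. Among the members Ebf1 and Tcf12 were each other's nearest (0.131), and Tcf4 and Spi1 were each other's nearest (0.3). Pax5 was nearest to Tcf12 (0.16), Tcf3 to Pax5 (0.249), Pou2af1 to Tcf3 (0.353), Bcl11a to Ebf1 (0.328), Spib to Tcf4 (0.336) and Pou2f2 to Spib (0.599). Many other genes lay nearer in each case: the nearest member had ranks from 250 (for Pou2af1) to 3465 (for Spi1) among the tested genes. The nearest genes overall were Npc2 and Tgds for Pax5, Dctn4 and Recql4 for Ebf1, Kin and Wdr60 for Tcf3, Rabif and Fgfrl1 for Tcf12, and Nlrc5 for Tcf4. For the rest they were Ptger1 and 4930596I21Rik (Spi1), Psd2 and Pdxk (Spib), She and Tyrobp (Pou2f2), Pcdhga7 and Mxd4 (Pou2af1), and Ccdc93 and Plscr1 (Bcl11a). With 4 libraries, of which 1 stands apart, many genes share a pattern, and these distances of 0.0092 to 0.0941 are a description.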

How the data were processed

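RNA was sequenced in 4 libraries. The submitters' processing notes name STAR, HTSeq, DESeq2 and mm10, and their versions and settings are not given in the sources used here. The authors deposited log2 values of the kind a variance stabilizing transformation gives, which reach 4.949 where a gene has no reads. Undoing the transformation (y raised from log2, K the same for the lowest value, then (y - K)(y - K)/y) gave normalised reads, and multiplying by size factors (0.5019, 0.3618, 0.4263 and 0.5079) gave reads, of which 100% were whole within 0.01. In the file of OE1 (overexpression-labelled library 1) the header and the sample title disagree by a digit, and the sample recorded for the file was used.

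Genes needed 10 reads at the median library size in 2 libraries and 15 in all. Groups were compared by limma with its trend option (version 3.58.1 in R 4.3.3) on the deposited log2 values, two-sided, with Benjamini-Hochberg adjustment over 12617 genes and a threshold of 0.05. Differences on this scale understate changes of low genes. The labels give no batch. OE1 and OE2 were fitted alone against the wildtype pair, and against each other in a fit with 3 levels. The scripts were tested on simulated data. Gene lengths come from GENCODE M21, matched by symbol for 12118 genes, and promoters from RefSeq (GRCm38.p6).

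The members and lists were chosen with earlier results of these data known. All 10 members are named. From each target list come the 2 largest rises and 2 largest falls called in OE1, and genes called in OE2. Igll1, Vpreb1, Rag1, Ptprc, Pou2f1, Cd79a, Cebpb, Id2, Gata1, Zbtb16 and the Ebf1 paralogs were named after their values were seen. A marker gene and a gene near Tcf4 in pattern are not reported here.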

Additional observations from a re-analysis of the deposited data

How the results depend on the processing

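The alternatives were 3 scalings (recomputed size factors, library totals, totals without Rn45s), no filter or 5 CPM in 2 libraries, log2 of normalised reads plus 0.5, limma-voom, a robust prior, no trend in limma, and leaving out libraries. Leaving out OE1 or OE2 moved the number of members called over both groups. Each of these is the same fit as the other library alone against wildtype, whose counts follow. In OE1 10 members were called, against 2 with no filter (14.8% of all genes) and 6 with no trend (53.2%). In OE2 it was 1, against 0 with no filter and 0 with no trend (0% in each) and 2 by limma-voom (4.87%). Between OE1 and OE2 it was 9, against 2 with no filter (13.9%). The other 32 recomputed counts stayed within 1.5 times. The cause of these losses was not tested. Over both groups the difference without OE1 and without OE2 was -0.023 and 0.96 for Pax5, -0.039 and 0.50 for Ebf1, -0.27 and 0.61 for Tcf12, 0.049 and -1.09 for Tcf4, 0.13 and -0.46 for Spi1, 0.39 and -1.69 for Spib, and -0.22 and 4.41 for Arid5b. In OE2, with no test, Pou2f2 was at 0.14 without wildtype library 1 and -0.21 without wildtype library 2, and Tcf4 at 0.16 and -0.061. In OE1, and between OE1 and OE2, 0 of the differences of the 10 members changed sign under any alternative. No paired analysis was possible because the labels carry no replicate numbers, and the numbers used here follow the order of the samples.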

Other observations

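Of 12 relatives of the 10 factors 6 were tested, and in OE1 1 rose and 5 fell. Ebf2, Ebf3 and Ebf4, the paralogs of Ebf1, had between 0 and 2 reads in every library. Spic, the third member of the Spi group, had 80 and 66 reads in wildtype, 0 in OE1 and 138 in OE2, and was called lower in OE1 (limma adjusted p = 4.25e-05), with a size that 0 reads do not fix. Ets1 fell in OE1 by 1.57 (SE 0.117, limma adjusted p = 1.01e-07) while the ETS gene Elf1 rose by 0.78 (SE 0.128, limma adjusted p = 0.000164). Fli1 fell in OE1 by 0.61 (limma adjusted p = 0.00711) and in OE2 by 0.98 (limma adjusted p = 0.0184), with wildtype libraries at 7326 and 5412 normalised reads, OE1 at 4093 and OE2 at 3156.

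Of 14 transcription factors of other lineages 7 were tested, of which 1 rose and 6 fell in OE1 and 0 were called in OE2. Gata3, a T lineage factor, had 99.6 and 66.3 normalised reads in wildtype, 429 in OE1 and 29.5 in OE2, and it rose in OE1 by 1.84 (SE 0.368, limma adjusted p = 0.000759). Irf7 fell by 3.004 (limma adjusted p = 2.25e-06). Tbx21 had 68 and 77 reads in wildtype, 0 in OE1 and 52 in OE2, and was called lower in OE1 (limma adjusted p = 5.87e-05), again with no fixed size. Id2, an inhibitor of E proteins, had 1387 and 1130 normalised reads in wildtype, 131 in OE1 and 2002 in OE2. The OE1 level of Id2 fell by 2.80 (SE 0.251, limma adjusted p = 6.27e-07). Gata1 and Zbtb16 had 0 reads in all 4 libraries. The counts of this list and of the relatives are read against the shares of all genes given above for each library. Most genes moved in OE1, so these counts are not read as particular to the lists.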
